A study of Mus musculus with 12 samples.

Results

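The carbonic anhydrases and the acid exporters examined here are 9 genes of 54232 in the deposited count files, chosen by symbol. Car9, Car12, Car2 and Car13 encode carbonic anhydrases, Slc16a1 and Slc16a3 encode lactate carriers, Bsg encodes a partner protein of those carriers, and Slc4a4 and Slc4a7 encode sodium bicarbonate cotransporters. A carbonic anhydrase converts carbon dioxide and water to bicarbonate and a proton, and back. Cells that run glycolysis at a high rate make lactate and protons. They can release both through monocarboxylate carriers, take up bicarbonate to buffer the cytosol, and turn over carbon dioxide at the outer face of the membrane with carbonic anhydrases anchored there. Several of these genes are textbook targets of the hypoxia-inducible factors, and human CA9 is widely used as a tissue marker of tumour hypoxia.

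RNA was sequenced from MMTV-NIC mouse breast cancer cells in 12 libraries, 3 in each of 4 groups. NIC stands for an activated Neu (ErbB2) transgene joined to Cre and driven by the MMTV promoter, a construct that all groups carry. The groups were AXL KO cells in 1% oxygen (AXL KO hypoxia), AXL KO cells in 21% oxygen (AXL KO normoxia), AXL WT cells in 1% oxygen (AXL WT hypoxia) and AXL WT cells in 21% oxygen (AXL WT normoxia), and the study set AXL KO against AXL WT in hypoxia. AXL is a receptor tyrosine kinase, one of the TAM receptors. Groups follow the sample titles; in 6 libraries (AXL KO normoxia and AXL WT hypoxia) the genotype tag says the opposite. The labels do not say how long hypoxia lasted, how many knockout clones were used or whether the replicates were separate cultures. The p-values therefore reflect how much these libraries scatter, and that scatter may be technical.

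The level of Axl follows the titles and not the tags. Counts in genes ran from 45297267 to 58775422 per library. Axl, given as counts per 1e6 reads (CPM) after TMM scaling, stood at 2.09, 2.35 and 1.72 CPM in AXL KO hypoxia and 2.93, 3.26 and 3.47 CPM in AXL KO normoxia, against 510, 455 and 592 CPM in AXL WT hypoxia and 911, 892 and 1000 CPM in AXL WT normoxia. All 10 genes of a list of oxygen-responsive genes were called higher in hypoxia in either genotype. Of all genes 27.3% were called higher in hypoxia in AXL KO and 29.2% in AXL WT. In normoxia all 10 were also higher in AXL KO than in AXL WT (median log2 fold change 1.84), where 29.7% of all genes were. In hypoxia 7 were higher in AXL KO (median 0.63, and 0.40 without AXL WT hypoxia libraries 2 and 3), where 29.9% of all genes were. The hypoxia response was smaller in AXL KO for 7 of the 10, against 15.3% of all genes. The AXL WT hypoxia libraries stood apart from each other, with a biological coefficient of variation of 0.4, against 0.0738 in AXL KO hypoxia, 0.0895 in AXL KO normoxia and 0.0585 in AXL WT normoxia. Most fold changes, counts and medians that rest on this group are therefore given again without its libraries 2 and 3. That fit has a single AXL WT hypoxia library, assumed to vary like the other groups, and its estimated spread is smaller. For each gene all groups share 1 estimate of spread, so SEs and calls of comparisons without AXL WT hypoxia also rest on it. In normoxia 10009 genes were called for AXL KO against AXL WT, and 12610 in a fit to the compared libraries alone. For hypoxia in AXL KO these numbers were 9719 and 11786. Summed luminal markers reached 2280 to 2380 CPM in AXL KO hypoxia, 2160 to 2450 CPM in AXL KO normoxia, 956 to 4490 CPM in AXL WT hypoxia and 3120 to 3210 CPM in AXL WT normoxia, with Krt19 below 1 CPM in every library. Erbb2, part of these sums, averaged 664, 559, 966 and 1230 CPM in the same order of groups. Its reads may include the Neu transgene, which was not tested. Epcam averaged 9.31, 7.1, 64.1 and 22.1 CPM and Cdh1 4.47, 5.53, 30.3 and 10.8 CPM in the same order. Of 7 luminal markers tested, 2 were called lower and 0 higher in AXL KO in hypoxia, where 33.0% of all genes were lower. In normoxia 3 were lower and 0 higher, where 30.0% of all genes were lower. Summed leukocyte markers reached 49.0 to 55.6, 59.6 to 85.3, 14.8 to 152 and 10.8 to 12.3 CPM in the same order of groups, and Ptprc, Adgre1, Cd3e and Itgam were below 1 CPM throughout. Summed basal markers stood at 2.96 to 3.35, 15.5 to 17.8, 136 to 293 and 305 to 344 CPM, with Krt5, Krt17 and Acta2 below 1 CPM. The others went opposite ways. Trp63 averaged 13.9 CPM in AXL KO normoxia and at most 0.0606 CPM in the other groups. Krt14 averaged 1.75, 0.634, 80.7 and 33.1 CPM and Sox10 1.28, 2.5, 130 and 287 CPM in the same order of groups. Summed endothelial markers stood at 15.7 to 17.5, 3.14 to 4.35, 0.751 to 1.85 and 0.354 to 0.617 CPM, mostly from Kdr in the AXL KO groups and from Pecam1 and Cdh5 in the AXL WT groups. Summed fibroblast markers stood at 58.7 to 65.4, 186 to 201, 72.1 to 96.1 and 66.1 to 72.6 CPM. Summed adipocyte markers stood at 4.55 to 4.61, 8.65 to 13.6, 8.53 to 27.9 and 33.8 to 41.8 CPM, with Adipoq, Plin1 and Lep below 1 CPM in every library. The part of these cell types in the results was not tested. In bulk RNA, fewer cells of a type and less RNA per cell cannot be told apart.

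Most of the 9 genes were more abundant in AXL KO than in AXL WT cells, at both oxygen levels. In hypoxia 6 of the 8 tested members were higher in AXL KO, Slc16a1 was lower and Slc4a7 was not called. A gene was called at an adjusted p under 0.05 (edgeR quasi-likelihood test, Benjamini-Hochberg over all genes tested). Of all 16767 genes tested in this comparison 63.0% were called, 29.9% higher and 33.0% lower, so a call on its own was common. The median log2 fold change was 2.04 over the tested members and −0.04 over all tested genes. Without AXL WT hypoxia libraries 2 and 3, 7 members were higher and 1 lower, with a median of 1.41, where 58.3% of all genes were called. In normoxia 7 of 8 were higher in AXL KO and Car13 was not called, where 59.7% of all genes were called, 29.7% higher and 30.0% lower. The medians there were 2.12 over the tested members and −0.03 over all genes.

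Low oxygen moved several of the same genes. In AXL KO cells 5 of the 8 were higher in hypoxia and Slc16a1 was lower, where 58.0% of all genes were called, 27.3% higher and 30.6% lower. In AXL WT cells 4 of 8 were higher in hypoxia, namely Car12, Car2, Bsg and Slc4a7, where 59.8% of all genes were called, 29.2% higher and 30.7% lower. Without AXL WT hypoxia libraries 2 and 3 the AXL WT count was 7 of 8, with 6 higher and Car13 lower, where 64.5% of all genes were called. Slc16a3 did not pass the filter on low counts. The tested members had at least 29 counts in every library.

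**Figure D1:**
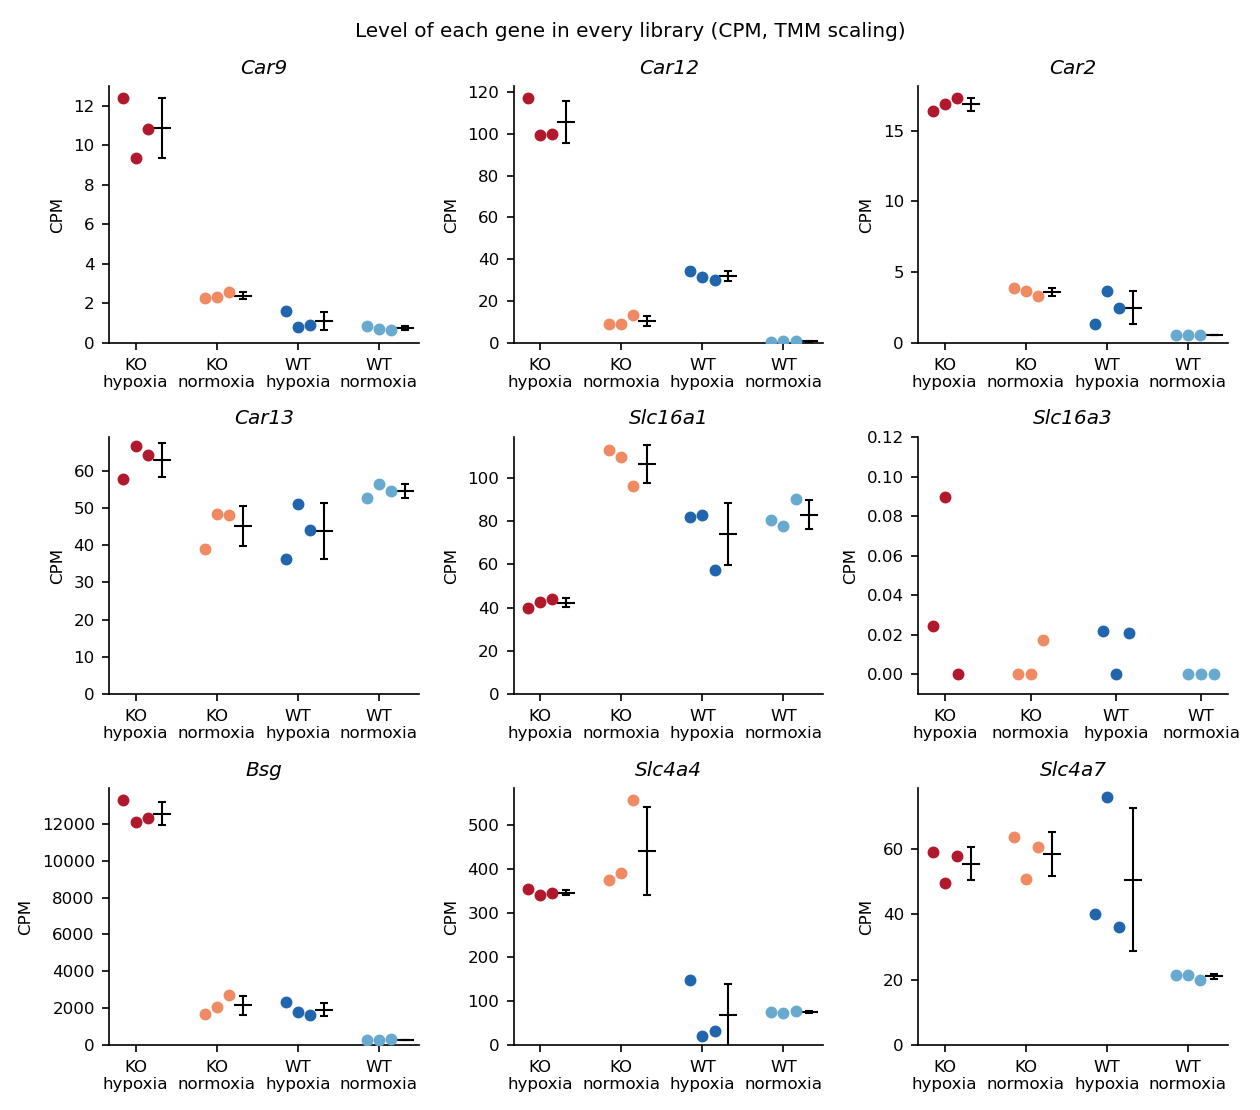
Each panel plots the level of 1 gene in CPM (TMM scaling, linear axis) for the 3 libraries of AXL KO hypoxia, AXL KO normoxia, AXL WT hypoxia and AXL WT normoxia, with points for libraries and, except for Slc16a3, a bar for the mean ± SD. Bsg lies between 12100 and 13300 CPM in AXL KO hypoxia and at most at 300 CPM in AXL WT normoxia, while Slc16a1 is lowest in AXL KO hypoxia and the AXL WT hypoxia points spread widely for Slc4a4 and Slc4a7.

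**Figure D2:**
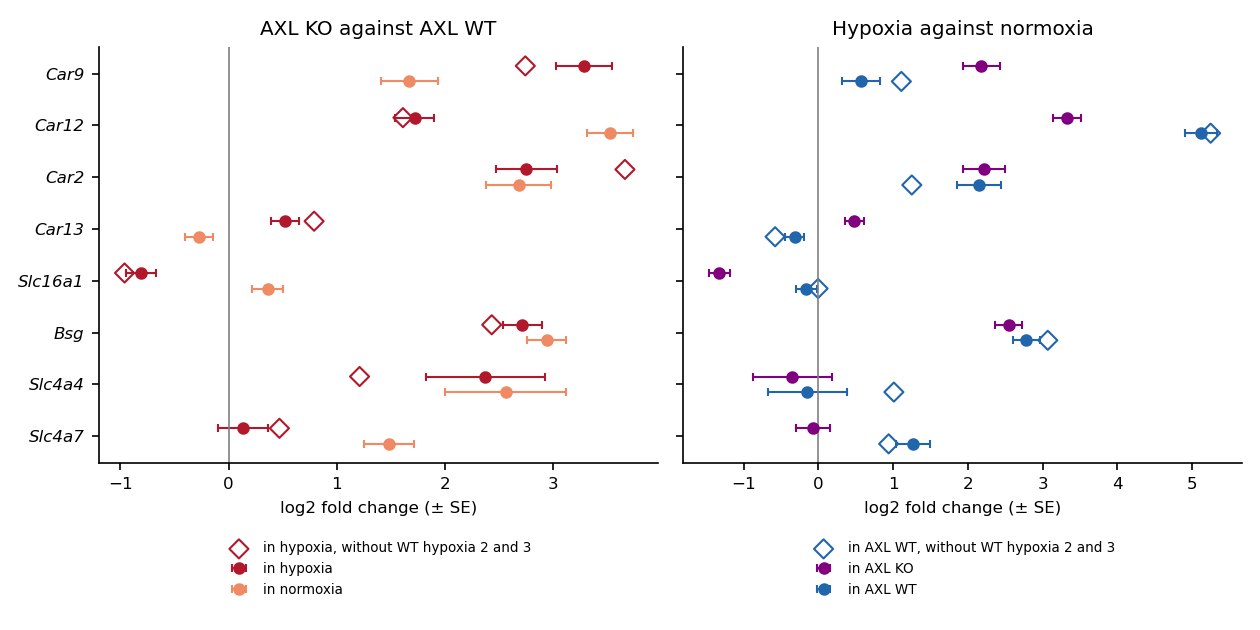
Log2 fold changes of the 8 tested members, with bars of ± 1 SE from the edgeR fit, for AXL KO against AXL WT (left) and for hypoxia against normoxia (right). Hollow diamonds give the same value without AXL WT hypoxia libraries 2 and 3, which moves Slc4a4 in AXL WT to 1.01 on the other side of 0.

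Car9 (ENSMUSG00000028463, GRCm38 chr4:43506966-43513729, plus strand), which encodes the membrane-anchored enzyme CA IX, was higher in AXL KO cells at both oxygen levels. It stood at 12.4, 9.36 and 10.8 CPM in AXL KO hypoxia, 2.29, 2.31 and 2.60 CPM in AXL KO normoxia, 1.61, 0.797 and 0.935 CPM in AXL WT hypoxia and 0.881, 0.688 and 0.681 CPM in AXL WT normoxia. All AXL KO hypoxia libraries lay above every other library, and the AXL WT groups overlapped. In hypoxia Car9 was 9.72-fold higher in AXL KO than in AXL WT (log2 fold change 3.28 ± 0.26, adjusted p = 8.33e-07; 2.74 ± 0.23 without AXL WT hypoxia libraries 2 and 3). In normoxia the difference was 3.19-fold (1.67 ± 0.26, adjusted p = 0.000141). Low oxygen raised Car9 4.52-fold in AXL KO cells (2.18 ± 0.25, adjusted p = 1.99e-05).

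In AXL WT cells the Car9 difference between hypoxia and normoxia was 0.57 ± 0.26 on the log2 scale and was not called (adjusted p = 0.0814). Whether it was called depended on the libraries and on the test. Without library 2 of AXL WT hypoxia the difference was 0.77 (adjusted p = 0.0216), and DESeq2 called it with all libraries (0.62, adjusted p = 0.041). Without libraries 2 and 3, which leaves library 1, the highest of the group, it was 1.11. The counts behind these values were 73, 34 and 45 in AXL WT hypoxia and 50, 37 and 39 in AXL WT normoxia. The hypoxia response of Car9 was larger in AXL KO than in AXL WT by 1.61 ± 0.36 (adjusted p = 0.00645; 1.07 without the 2 libraries, adjusted p = 0.00676). An antisense gene, Gm12454, overlaps Car9 on the other strand, and the files were counted by strand.

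Car12 (ENSMUSG00000032373, chr9:66713686-66766845, plus strand) encodes CA XII, another membrane-anchored carbonic anhydrase with its active site outside the cell. Its level was 117, 99.3 and 100 CPM in AXL KO hypoxia, 9.17, 9.07 and 13.2 CPM in AXL KO normoxia, 34.4, 31.5 and 29.9 CPM in AXL WT hypoxia and 0.687, 1.14 and 0.925 CPM in AXL WT normoxia. No library of a group overlapped those of another group. Hypoxia raised it in both genotypes, 10.0-fold in AXL KO (3.33 ± 0.19, adjusted p = 1.71e-07) and 34.8-fold in AXL WT (5.12 ± 0.21, adjusted p = 2.43e-08; 5.25 without libraries 2 and 3). AXL KO cells held more of it in hypoxia, 3.3-fold (1.72 ± 0.18, adjusted p = 6.16e-06; 1.61 without the 2 libraries). The excess in normoxia was 11.4-fold (3.52 ± 0.21, adjusted p = 4.87e-08). On the log2 scale the hypoxia response was therefore smaller in AXL KO, by −1.79 ± 0.26 (adjusted p = 0.000511; −1.91 without the 2 libraries). Car9 and Car12 thus differed in opposite directions in their response by genotype.

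The stretches of 250 bases before the RefSeq starts of Car9 and Car12 (GRCm38.p6, plus strand, 5′ to 3′) are shown because both genes rose in hypoxia in AXL KO cells. Capitals mark ACGTG or GCGTG, the letters of the core hypoxia response element, on either strand, so that CACGT or CACGC is a match on the opposite strand. The start used for Car9 lies inside the span that the deposited files give for the gene.
Car9 (chr4:43506776-43507025): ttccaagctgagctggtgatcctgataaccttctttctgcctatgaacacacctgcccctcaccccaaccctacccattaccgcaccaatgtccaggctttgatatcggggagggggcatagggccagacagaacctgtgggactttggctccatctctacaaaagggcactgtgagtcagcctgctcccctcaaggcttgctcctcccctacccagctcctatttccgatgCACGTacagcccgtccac
Car12 (chr9:66713436-66713685): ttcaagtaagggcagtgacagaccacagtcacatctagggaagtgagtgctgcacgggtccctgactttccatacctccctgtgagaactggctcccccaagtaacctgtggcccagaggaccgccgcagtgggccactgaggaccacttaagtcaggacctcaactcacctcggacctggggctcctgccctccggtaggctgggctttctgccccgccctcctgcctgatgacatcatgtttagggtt
The Car9 stretch holds 1 match, on the opposite strand, beginning 18 bases upstream of the start. The Car12 stretch holds 0 matches to these letters. Of 32851 such windows of mouse genes 38.6% hold at least 1 match. A match is a description of letters and not a bound site. For Car2, Car13 and Bsg no promoter sequence is shown.

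Car2 (ENSMUSG00000027562, chr3:14886273-14900770, plus strand) encodes the fast cytosolic enzyme CA II. Levels of 16.4, 16.9 and 17.3 CPM were measured in AXL KO hypoxia, 3.89, 3.66 and 3.29 CPM in AXL KO normoxia, 1.33, 3.70 and 2.47 CPM in AXL WT hypoxia and 0.582, 0.540 and 0.559 CPM in AXL WT normoxia. AXL KO hypoxia was above all other libraries and AXL WT normoxia below them. AXL KO exceeded AXL WT 6.75-fold in hypoxia (2.75 ± 0.28, adjusted p = 6.72e-06) and 6.43-fold in normoxia (2.68 ± 0.30, adjusted p = 1.18e-05). Hypoxia raised Car2 4.66-fold in AXL KO (2.22 ± 0.28, adjusted p = 3.99e-05) and 4.44-fold in AXL WT (2.15 ± 0.30, adjusted p = 9.41e-05). The responses differed by 0.07 ± 0.43 (adjusted p = 0.936). Library 1 of AXL WT hypoxia was the lowest of its group, and with libraries 2 and 3 left out the AXL WT response was 1.25 (adjusted p = 0.000132), the hypoxic genotype difference 3.66 (adjusted p = 2.45e-11) and the difference of responses 0.97 (adjusted p = 0.00491).

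Car13 (ENSMUSG00000027555, chr3:14641727-14663002, plus strand), which encodes another cytosolic carbonic anhydrase, moved little, with group means between 43.8 and 62.9 CPM. It was read at 57.7, 66.7 and 64.2 CPM in AXL KO hypoxia, 39.0, 48.3 and 48.2 CPM in AXL KO normoxia, 36.2, 51.2 and 44.1 CPM in AXL WT hypoxia and 52.6, 56.4 and 54.5 CPM in AXL WT normoxia. All AXL KO hypoxia libraries exceeded every other library, by a small margin. Hypoxia raised it 1.39-fold in AXL KO (0.48 ± 0.13, adjusted p = 0.00908; 0.27, adjusted p = 0.0955, when scaled by library size alone). In AXL WT the difference was −0.32 ± 0.13 and was not called (adjusted p = 0.0596; −0.58, adjusted p = 0.000424, without libraries 2 and 3). AXL KO was 1.44-fold above AXL WT in hypoxia (0.52 ± 0.13, adjusted p = 0.00494; 0.79 without the 2 libraries). In normoxia it was −0.27 ± 0.13 (adjusted p = 0.0997), not called although the libraries did not overlap, and 7 of 23 alternatives called it. AXL KO and AXL WT differed in their response by 0.79 ± 0.19 (adjusted p = 0.00918; 1.06 without the 2 libraries).

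Per exon length the shares of the 4 carbonic anhydrases changed with genotype and oxygen, while Car13 ranked first of them in every group. Fragments per kilobase of exon and per 1e6 counts (FPKM, TMM-scaled) summed over these genes gave 52.6, 53.1 and 52.9 FPKM in AXL KO hypoxia, 20.8, 24.7 and 25.2 FPKM in AXL KO normoxia, 21.5, 28.3 and 24.5 FPKM in AXL WT hypoxia and 23.6, 25.2 and 24.3 FPKM in AXL WT normoxia. The AXL KO hypoxia sums stood apart from the other groups, which overlapped each other. Car13 made up 47.7 to 54.6% of the sum in AXL KO hypoxia, 81.7 to 85.0% in AXL KO normoxia, 73.1 to 78.7% in AXL WT hypoxia and 97.0 to 97.3% in AXL WT normoxia. Car12 made up 24.6 to 29.2%, 4.83 to 6.91%, 14.7 to 21.1% and 0.384 to 0.593% in the same order of groups. Thus among these 4 genes the cytosolic Car13 was nearly the whole sum in AXL WT normoxia, and the membrane enzyme Car12 took its largest share in AXL KO hypoxia. Car5b, which encodes a mitochondrial form, is not part of the sum. It averaged 13.6 FPKM in AXL KO hypoxia, 19.0 in AXL KO normoxia, 24.7 in AXL WT hypoxia and 24.0 in AXL WT normoxia. Its mean was thus close to that of Car13 in AXL WT normoxia, 23.7 FPKM.

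**Figure D3:**
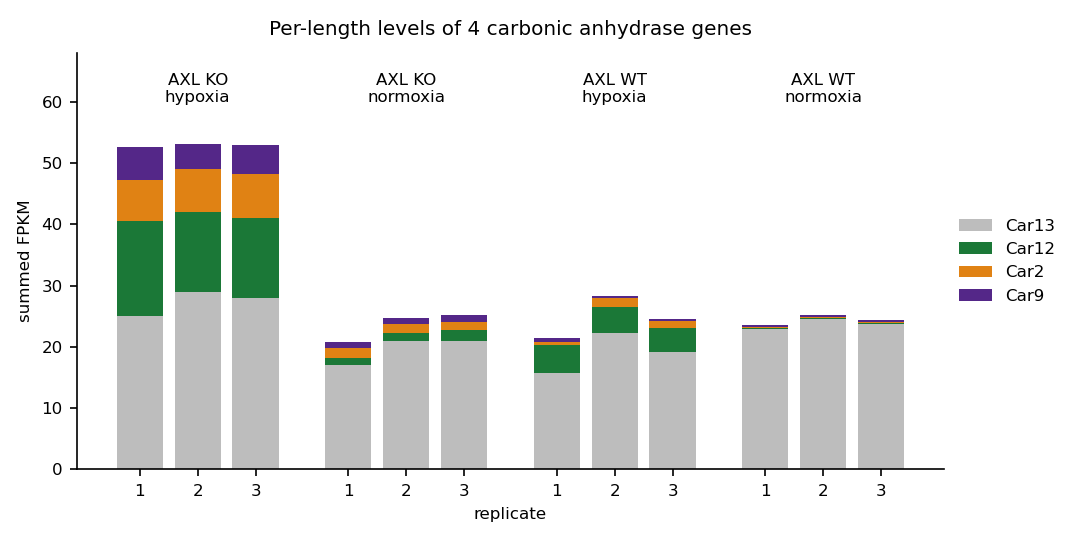
Stacked bars give the FPKM of Car13, Car12, Car2 and Car9 in each of the 12 libraries, by group and replicate number, on a linear axis from 0. The bars reach 52.6 to 53.1 FPKM in AXL KO hypoxia and at most 28.3 FPKM elsewhere, and the Car13 segment is the largest in every bar.

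Slc16a1 (ENSMUSG00000032902, chr3:104638668-104658462, plus strand) encodes MCT1, a carrier that moves lactate with a proton in either direction across the cell membrane. With all libraries it was the only tested member called lower in AXL KO hypoxia, against either AXL WT hypoxia or AXL KO normoxia. It stood at 40.0, 42.7 and 44.1 CPM in AXL KO hypoxia, 113, 110 and 96.5 CPM in AXL KO normoxia, 82.0, 82.9 and 57.3 CPM in AXL WT hypoxia and 80.7, 77.8 and 90.5 CPM in AXL WT normoxia. AXL KO hypoxia was the lowest group and AXL KO normoxia the highest, and the AXL WT groups overlapped. Hypoxia lowered Slc16a1 2.52-fold in AXL KO (−1.33 ± 0.14, adjusted p = 1.17e-05). In AXL WT the difference was −0.16 ± 0.14 (adjusted p = 0.321; −0.0046 without libraries 2 and 3), and it was called with scaling by library size alone (−0.47, adjusted p = 0.00481). The responses differed by −1.17 ± 0.19 (adjusted p = 0.00118; −1.32 without the 2 libraries). In hypoxia AXL KO was 1.75-fold below AXL WT (−0.81 ± 0.14, adjusted p = 0.000327; −0.96 without the 2 libraries). In normoxia it was 1.28-fold above (0.36 ± 0.14, adjusted p = 0.0402), a call that 11 of 23 alternatives lost. They included scaling by library size alone (0.10, adjusted p = 0.472) and leaving out either library 1 or library 2 of AXL KO normoxia (adjusted p = 0.113 and 0.098) or of AXL WT normoxia (adjusted p = 0.0733 and 0.0883). Leaving out any 1 library of AXL KO hypoxia, which is no part of that comparison, also ended it (adjusted p = 0.0503 to 0.0551). Sense-intronic genes inside Slc16a1, Gm43581 and Gm43585, had at most 7 counts in a library.

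Slc16a3 (ENSMUSG00000025161, chr11:120948480-120960868, plus strand), which encodes MCT4, the carrier usually linked to lactate export from glycolytic cells, was barely read. It had 1, 4 and 0 counts in AXL KO hypoxia, 0, 0 and 1 in AXL KO normoxia, 1, 0 and 1 in AXL WT hypoxia and 0, 0 and 0 in AXL WT normoxia. A count of 0 in AXL WT normoxia allows a level of up to 0.0179 CPM (3 counts over the group, counting error only), and the sum in AXL KO hypoxia came to 5 counts, so no fold was computed. The next gene along the chromosome, Csnk1d on the opposite strand, was read at 224, 202 and 211 CPM in AXL KO hypoxia and at 178, 193 and 184 CPM in AXL WT normoxia. Low counts were thus measured at Slc16a3 and not at this neighbour.

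The promoter stretches of the 2 carriers are shown because the genes contrast: Slc16a1 was read in every library and Slc16a3 hardly at all. Capitals mark the same letters as above. The start used for Slc16a3 lies inside the gene's span in the files.
Slc16a1 (chr3:104638414-104638663): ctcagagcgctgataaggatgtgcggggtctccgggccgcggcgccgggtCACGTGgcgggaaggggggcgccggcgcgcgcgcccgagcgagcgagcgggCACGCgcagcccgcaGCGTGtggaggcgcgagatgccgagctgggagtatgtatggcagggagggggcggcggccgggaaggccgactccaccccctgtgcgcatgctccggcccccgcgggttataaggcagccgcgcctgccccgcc
Slc16a3 (chr11:120948817-120949066): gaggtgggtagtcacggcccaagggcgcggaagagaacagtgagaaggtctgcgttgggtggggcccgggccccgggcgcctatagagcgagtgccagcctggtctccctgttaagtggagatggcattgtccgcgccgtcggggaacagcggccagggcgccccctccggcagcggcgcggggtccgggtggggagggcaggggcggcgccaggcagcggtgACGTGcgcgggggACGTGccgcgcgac
The Slc16a1 stretch holds 4 matches, 2 of them the same CACGTG read on both strands. That palindrome is an E-box, and 6.02% of all windows hold it. The Slc16a3 stretch holds 2 matches on its own strand, beginning 27 and 14 bases upstream of the start, and 16.7% of all windows hold at least 2. Both stretches are rich in CG dinucleotides, with 37 for Slc16a1 and 29 for Slc16a3, against 5 for Car9 and 6 for Car12, where the median window has 6.

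Bsg (ENSMUSG00000023175, chr10:79704491-79711969, plus strand) encodes basigin (CD147), a membrane glycoprotein that escorts MCT1 and MCT4 to the cell surface. It was by far the most abundant of the 9 genes in all groups. Levels were 13300, 12100 and 12300 CPM in AXL KO hypoxia, 1660, 2090 and 2710 CPM in AXL KO normoxia, 2330, 1770 and 1650 CPM in AXL WT hypoxia and 263, 277 and 300 CPM in AXL WT normoxia. AXL KO hypoxia was above and AXL WT normoxia below all other libraries, and the middle groups, AXL KO normoxia and AXL WT hypoxia, overlapped. Bsg alone took 1.14, 1.05 and 1.07% of all counts in AXL KO hypoxia, where it was the gene with rank 2, 3 and 3 by counts, against 0.032, 0.0328 and 0.0352% and ranks 498, 481 and 415 in AXL WT normoxia.

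Bsg was 6.55-fold higher in AXL KO than in AXL WT in hypoxia (2.71 ± 0.18, adjusted p = 1.73e-07; 2.43 without libraries 2 and 3 of AXL WT hypoxia) and 7.69-fold higher in normoxia (2.94 ± 0.18, adjusted p = 7.36e-08). Low oxygen raised it 5.84-fold in AXL KO (2.55 ± 0.18, adjusted p = 6.99e-07) and 6.85-fold in AXL WT (2.78 ± 0.18, adjusted p = 3.01e-07; 3.07 without the 2 libraries). The responses differed by −0.23 ± 0.24 (adjusted p = 0.509; −0.52, adjusted p = 0.107, without them), which was not called. The 4 fold changes of Bsg between groups thus lay between 2.55 and 2.94 on the log2 scale.

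Carrier and partner moved apart. The ratio of Bsg to Slc16a1 FPKM was 812, 689 and 683 in AXL KO hypoxia, 35.9, 46.4 and 68.4 in AXL KO normoxia, 69.2, 52.2 and 70.5 in AXL WT hypoxia and 7.94, 8.67 and 8.10 in AXL WT normoxia. Only AXL KO normoxia and AXL WT hypoxia overlapped in that ratio. Embigin, encoded by Emb, and neuroplastin, encoded by Nptn, are related membrane proteins that can also partner such carriers. Emb averaged 421 CPM in AXL KO hypoxia against 19.9 CPM in AXL WT hypoxia (4.40 ± 0.17, adjusted p = 2.31e-09; 4.04 without the 2 libraries), and 380 CPM in AXL KO normoxia against 19.6 CPM in AXL WT normoxia (4.28 ± 0.17, adjusted p = 2.32e-09). Nptn averaged 426 CPM in AXL KO hypoxia against 219 CPM in AXL WT hypoxia (0.96 ± 0.10, adjusted p = 5.1e-06; 0.76 without them). Even so, Bsg made up 98.1 to 98.3% of the summed FPKM of Bsg, Emb and Nptn in AXL KO hypoxia, at least 90.3% in AXL KO normoxia, 96.3 to 96.6% in AXL WT hypoxia and 83.0 to 84.2% in AXL WT normoxia.

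Of the carrier genes of this kind, Slc16a1 held most of the reads. Among Slc16a1, Slc16a3, Slc16a7 and Slc16a8 it made up 92.1 to 94.0% of summed FPKM in AXL KO hypoxia, 92.3 to 94.0% in AXL KO normoxia, 99.5 to 99.8% in AXL WT hypoxia and 99.8% in AXL WT normoxia. Slc16a7, which encodes MCT2, averaged 7.63 CPM in AXL KO hypoxia against 0.384 CPM in AXL WT hypoxia (4.32 ± 0.45, adjusted p = 7.59e-06; 6.39 without the 2 libraries). In normoxia it averaged 20.4 CPM in AXL KO against 0.310 CPM in AXL WT (6.03 ± 0.47, adjusted p = 5.53e-07). Like Slc16a1, Slc16a7 fell in hypoxia in AXL KO (−1.42 ± 0.37, adjusted p = 0.00573). In AXL WT its hypoxia response was 0.29 ± 0.51 (adjusted p = 0.653), and −1.77 without the 2 libraries. The values without them rest on AXL WT hypoxia library 1, where Slc16a7 made up 0.0401% of the summed FPKM. It made up 0.347 and 0.189% in libraries 2 and 3.

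**Figure D4:**
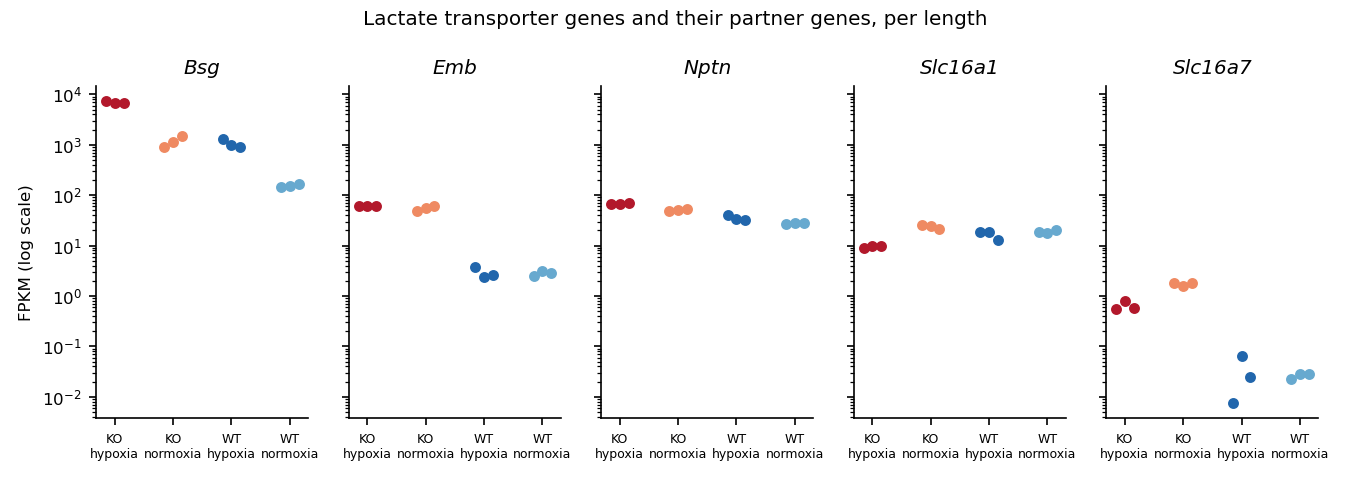
FPKM on a log axis for Bsg, Emb, Nptn, Slc16a1 and Slc16a7, with 1 point per library in AXL KO hypoxia, AXL KO normoxia, AXL WT hypoxia and AXL WT normoxia. Bsg lies highest in every group, Emb separates the genotypes at both oxygen levels, and Slc16a1 is lowest in AXL KO hypoxia.

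Slc4a4 (ENSMUSG00000060961, chr5:88886818-89239653, plus strand) encodes an electrogenic sodium bicarbonate cotransporter. Its levels followed genotype: 354, 341 and 346 CPM in AXL KO hypoxia, 375, 392 and 557 CPM in AXL KO normoxia, 149, 21.6 and 31.1 CPM in AXL WT hypoxia and 74.7, 71.8 and 77.4 CPM in AXL WT normoxia. Every AXL KO library lay above every AXL WT library, and AXL WT hypoxia library 1 was well above libraries 2 and 3. In hypoxia AXL KO was 5.16-fold above AXL WT (2.37 ± 0.55, adjusted p = 0.0028), with 3.73 (adjusted p = 2.97e-09) without library 1 and 1.21 (adjusted p = 0.000101) without libraries 2 and 3. In normoxia it was 5.91-fold above (2.56 ± 0.56, adjusted p = 0.00175). The size of the hypoxic difference thus changed with the AXL WT libraries used, and its direction did not.

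No oxygen response of Slc4a4 was called. In AXL KO the difference was −0.35 ± 0.53 (adjusted p = 0.597), although the libraries of the groups did not overlap, and the fit to the compared libraries alone called it (adjusted p = 0.0254). In AXL WT it was −0.15 ± 0.53 (adjusted p = 0.827). That value turned with the libraries: without library 1 of AXL WT hypoxia it was −1.50 (adjusted p = 7.65e-06), and without libraries 2 and 3 it was 1.01 (adjusted p = 0.000152). The difference of responses was −0.20 ± 0.74 (adjusted p = 0.882), 1.16 (adjusted p = 0.000945) without library 1 and −1.35 (adjusted p = 0.000222) without libraries 2 and 3. Markers of the luminal list also differed between AXL WT hypoxia libraries 1, 2 and 3, among them Erbb2, whose reads may include the Neu transgene. Erbb2 was at 2410, 131 and 360 CPM, Krt8 at 828, 323 and 418 CPM, Krt18 at 1160, 372 and 382 CPM and Cdh1 between 20.5 and 47.4 CPM, all highest in library 1, while Epcam, at 45.9, 104 and 42.6 CPM, was highest in library 2. The part of this in the Slc4a4 values was not tested.

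Slc4a7 (ENSMUSG00000021733, chr14:14702279-14799940, plus strand) encodes an electroneutral sodium bicarbonate cotransporter. It was measured at 58.8, 49.6 and 57.7 CPM in AXL KO hypoxia, 63.4, 50.7 and 60.6 CPM in AXL KO normoxia, 39.9, 75.7 and 36.0 CPM in AXL WT hypoxia and 21.4, 21.4 and 20.0 CPM in AXL WT normoxia. AXL WT normoxia was below all other libraries, and the remaining groups overlapped. AXL KO was 2.78-fold above AXL WT in normoxia (1.48 ± 0.23, adjusted p = 0.000174). In hypoxia the difference was 0.13 ± 0.23 (adjusted p = 0.631), 0.54 (adjusted p = 0.00202) without library 2 of AXL WT hypoxia, 0.47 (adjusted p = 0.00378) without libraries 2 and 3, and −0.01 with scaling by library size alone. Hypoxia raised Slc4a7 2.41-fold in AXL WT (1.27 ± 0.23, adjusted p = 0.000598; 0.94, adjusted p = 2.04e-06, without libraries 2 and 3). In AXL KO the difference was −0.07 ± 0.23 (adjusted p = 0.808). AXL KO and AXL WT differed in their response by −1.34 ± 0.32 (adjusted p = 0.00983; −1.01 without the 2 libraries). Library 2 of AXL WT hypoxia, the highest for Slc4a7, was also the highest of its group for the myeloid receptor gene Csf1r, at 5.41, 145 and 41.1 CPM in libraries 1, 2 and 3, against at most 0.218 CPM elsewhere. Cd68, the other leukocyte marker above 1 CPM, did not follow it, at 9.28, 5.77 and 6.09 CPM in the same libraries, 48.9 to 55.3 CPM in AXL KO hypoxia, 59.5 to 85.2 CPM in AXL KO normoxia and 10.6 to 12.2 CPM in AXL WT normoxia. The part of Csf1r-expressing cells in the Slc4a7 value was not tested.

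Ranked per length, the order of the genes differed between groups. In AXL KO hypoxia the mean FPKM was 6930 for Bsg, 32.1 for Slc4a4, 27.4 for Car13, 13.9 for Car12, 9.55 for Slc16a1, 6.96 for Car2, 4.72 for Car9 and 3.64 for Slc4a7, and no neighbours in that order overlapped. In AXL KO normoxia Slc16a1 came after Slc4a4 with 24.0 FPKM, while Car2, Car12 and Car9 came last with 1.49, 1.38 and 1.04 FPKM, and Car2 and Car12 overlapped. In AXL WT hypoxia Car13, Slc16a1, Slc4a4 and Car12, at 19.1, 16.7, 6.22 and 4.21 FPKM, each overlapped the next in the order. Car9 had the lowest mean of the tested genes in that group, 0.484 FPKM, and overlapped Car2 at 1.03 FPKM. In AXL WT normoxia Car13 followed Bsg with 23.7 FPKM, and Car9, Car2 and Car12 were at 0.326, 0.231 and 0.121 FPKM. Car12, the lowest tested gene there, was in the middle of the order in AXL KO hypoxia.

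Taking the response difference over all tested members, 5 of 8 were called. The log2 fold change with hypoxia was higher in AXL KO for Car9 and Car13 and lower for Car12, Slc16a1 and Slc4a7. Of all genes tested 28.8% were called for this difference, 13.5% higher and 15.3% lower. Without AXL WT hypoxia libraries 2 and 3 the count was 7 of 8, with Car2 and Slc4a4 added as given above, where 37.2% of all genes were called.

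The other genes of the pathway were taken as 5 lists, described by counts. The share of all genes called, to be read beside them, was 29.9% higher and 33.0% lower for AXL KO against AXL WT in hypoxia and 29.7% and 30.0% in normoxia. Of 12 other carbonic anhydrases 7 were tested, and in AXL KO against AXL WT in hypoxia 2 were higher and 2 lower (3 and 0 without libraries 2 and 3), with a median of −0.46 (1.33 without them). Car6, the secreted form, averaged 0.641 CPM in AXL KO hypoxia against 0.0797 CPM in AXL WT hypoxia (2.95 ± 0.52, adjusted p = 0.000431; 2.25 without them), and Car3 averaged 0.504 against 0.113 CPM (2.16 ± 0.48, adjusted p = 0.00195; 3.43 without them). Car5b, a mitochondrial form, averaged 86.3 CPM in AXL KO hypoxia against 157 CPM in AXL WT hypoxia (−0.86 ± 0.21, adjusted p = 0.00315), a call lost without the 2 libraries (−0.17, adjusted p = 0.164). In normoxia 3 of the 7 were higher in AXL KO and 0 lower.

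Of 12 other genes of the Slc4 and Slc26 families, which include bicarbonate transporters, 6 were tested. In hypoxia 1 was higher and 3 were lower in AXL KO (3 and 3 without the 2 libraries), and in normoxia 1 was higher and 2 were lower. No median is given for this list, since Slc4a1 and Slc4a10 had no count in whole groups. The anion exchanger gene Slc4a3 averaged 29.6 CPM in AXL KO hypoxia against 0.347 CPM in AXL WT hypoxia (6.41 ± 0.28, adjusted p = 5.69e-09; 5.73 without them), and 32.7 CPM in AXL KO normoxia against 0.568 CPM in AXL WT normoxia (5.84 ± 0.27, adjusted p = 6.53e-09). Slc4a11 went the other way, with 2.68 CPM in AXL KO hypoxia against 52.6 CPM in AXL WT hypoxia (−4.30 ± 0.41, adjusted p = 3.89e-06; −3.89 without them). Slc4a1, the red-cell anion exchanger, averaged 2.79 CPM in AXL WT hypoxia (1.13 CPM in library 1) and had no count in AXL WT normoxia, a difference of at least 156-fold against a floor of 3 counts over the group, and of at least 63.0-fold for library 1 alone. Summed erythroid markers stayed at or below 0.141 CPM in every library.

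Of 12 proton exchangers and pumps 8 were tested, with 3 higher and 2 lower in AXL KO in hypoxia (3 and 2 of 9 tested without libraries 2 and 3) and 2 higher and 4 lower in normoxia. The endosomal exchanger gene Slc9a9 fell in hypoxia, to 2.71 CPM in AXL KO hypoxia against 16.4 CPM in AXL KO normoxia (−2.60 ± 0.21, adjusted p = 1.64e-06), and to 0.728 CPM in AXL WT hypoxia against 5.23 CPM in AXL WT normoxia (−2.84 ± 0.22, adjusted p = 1.06e-06; −2.62 without AXL WT hypoxia libraries 2 and 3). Of 6 acid sensor genes 2 were tested, and both were higher in AXL KO in normoxia and 1 in hypoxia (also 1 without the 2 libraries).

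Of 9 further genes of lactate formation and transport 7 were tested, and in normoxia 7 of 7 were higher in AXL KO. In hypoxia 4 were higher and 2 lower (4 and 1 without the 2 libraries). Ldha, the subunit that favours making lactate, averaged 4140 CPM in AXL KO hypoxia against 6640 CPM in AXL WT hypoxia (−0.68 ± 0.11, adjusted p = 0.000211; −0.68 without them). It rose in hypoxia in AXL KO, with 4140 against 1630 CPM in normoxia (1.35 ± 0.11, adjusted p = 2.06e-06), and in AXL WT, with 6640 against 1340 CPM in normoxia (2.31 ± 0.11, adjusted p = 5.31e-08; 2.32 without them). Ldhb, the subunit that favours using lactate, averaged 9.08 CPM in AXL KO hypoxia against 1.52 CPM in AXL WT hypoxia (2.57 ± 0.16, adjusted p = 8.64e-08; 2.45 without them). Ldha has processed pseudogenes, and fragments that mapped to several places were left out by the authors, so its count may be too low. For hypoxia against normoxia in AXL KO, 2 other carbonic anhydrases were higher and 1 lower, and 0 and 1 of the other Slc4 and Slc26 genes. The counts were 2 and 2 for proton exchangers, 2 and 4 for lactate genes and 2 and 0 for acid sensors. Of all genes 27.3% were higher and 30.6% lower there. In AXL WT the counts were 2 and 1, 1 and 2, 2 and 2, 2 and 2, and 1 and 0 in the same order of lists, where 29.2% of all genes were higher and 30.7% lower. Without libraries 2 and 3 they were 1 and 2, 1 and 3, 1 and 4, 3 and 3, and 1 and 0, where 31.1% were higher and 33.4% lower.

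The genes whose pattern over the 12 libraries was most like that of a member were found by the root mean square difference of centred log2 CPM. Car12 was most like P4ha2, a collagen prolyl hydroxylase gene, at 0.43 and Pfkfb3, a glycolytic regulator gene, at 0.72, where the median over all genes was 2.64. Bsg was most like Pygl, which encodes liver glycogen phosphorylase, at 0.30 and Fam13a at 0.31, with a median of 2.07. Car9 was most like Glul, which encodes glutamine synthetase, at 0.32 and Lmx1b at 0.34, with a median of 1.62. The closest genes were Syt17 (0.35) and Id2 (0.36) for Car2, Ppp2r5d (0.11) and Cltb (0.12) for Car13, and Peak1 (0.17) and Erich2 (0.17) for Slc16a1. For Slc4a4 they were Aldh6a1 (0.27) and Pdxk (0.27), and for Slc4a7 Mon2 (0.17) and Atp2b1 (0.19).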

How the data were processed

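Sample titles gave the groups and the replicate numbers, because in 6 libraries the genotype tag contradicts the title. Per the submitters' processing notes, the authors used FastQC 0.11.5, STAR 2.5.1b, featureCounts 1.4.6 and DESeq2 1.12.3 with mouse GRCm38. Per the file headers, featureCounts 1.6.0 and Ensembl release 93 were used, with no reason for the change of version in the sources used here. What the authors deposited are raw counts per gene: per the file headers, read pairs with both ends mapped were counted by strand (reverse), and chimeric pairs and pairs that mapped to several places were left out. Exon lengths come from the same files.

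Symbols were matched by Ensembl ID to GENCODE M21 (54165 of 54232 genes, 97.7% of them with the same coordinates in both). The analysis used edgeR 4.0.16 under R 4.3.3. After filterByExpr (16767 genes kept, 37465 removed) and TMM scaling, a robust quasi-likelihood model with 1 mean per group took in all 12 libraries, which left 8 residual degrees of freedom. P-values were adjusted with Benjamini-Hochberg over all genes tested. The SE after each log2 fold change was obtained by dividing its absolute value by the root of F. A difference of responses is the hypoxia log2 fold change in AXL KO minus that in AXL WT. FPKM were computed from TMM-scaled counts and exon length. That length covers all annotated exons of a gene, so FPKM compared between genes depend on the annotation. The scripts were tested on simulated data.

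The members, pathway lists and cell type markers were chosen with earlier results of these data known. Values of some listed genes are not reported here. Named genes of a pathway list are called ones, those of smallest p first. The patterns most alike use log2 CPM with a prior count of 2, among protein-coding genes. Promoter sequences are RefSeq's (GRCm38.p6), matched by symbol for 6 of the 9 members.

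Alternatives covered scaling (RLE factors, or library size alone), filtering (none, or 5 CPM in 3 libraries), the test (DESeq2 1.42.0, or limma 3.58.1 voom with or without group quality weights), a replicate block, a fit to only the libraries compared, a minimum fold of 2, and libraries left out, singly or as AXL WT hypoxia 2 and 3 together.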

Additional observations from a re-analysis of the deposited data

Results flagged for a closer look

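The hypoxia response differed between the genotypes by an interaction test in 5 of the 8 tested members and in 3 of the genes named from the pathway lists. Of all genes tested 28.8% were called for this difference, 13.5% higher and 15.3% lower. Values are the log2 fold change in AXL KO minus that in AXL WT (edgeR). For Car9 the difference was 1.61, with a response of 2.18 in AXL KO and 0.57 in AXL WT. For Car13 it was 0.79, with 0.48 in AXL KO and −0.32 in AXL WT. For Car12 it was −1.79, although Car12 rose in both genotypes. For Slc16a1 it was −1.17, with a fall in AXL KO alone passing the test, and for Slc4a7 it was −1.34, with a rise in AXL WT alone passing the test.

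Among the list genes, Ldha differed by −0.97 (adjusted p = 0.000912; −0.97 without AXL WT hypoxia libraries 2 and 3). Ldhd, which encodes a D-lactate dehydrogenase, differed by −1.07 (adjusted p = 0.00404; −0.83 without them). Car6 differed by 2.22 (adjusted p = 0.0265) and was not called without them (1.51, adjusted p = 0.138).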

How the results depend on the processing

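Over 23 alternatives 912 values of single members were recomputed: 853 kept their direction and their side of the threshold, 20 kept the direction and lost the call, 24 gained a call and 15 changed sign. None of the calls of Car9, Car12, Car2, Bsg and Slc4a4 between 2 groups was lost under any alternative. The cause of each change below was not tested, except that a minimum fold of 2 is stricter by construction. With that minimum, all-gene calls were 4120 and 4084 for AXL KO against AXL WT in hypoxia and normoxia, 2969 and 3432 for hypoxia against normoxia in AXL KO and AXL WT, and 933 for the difference of responses, where 1 member was called. Leaving out 1 library gave 9688 to 12564, 8873 to 11964, 8288 to 11499, 9013 to 11720 and 3582 to 8417 calls in the same comparisons, the last highest without AXL WT hypoxia library 1. Members called then numbered 7 to 8, 6 to 8, 6, 4 to 6 and 5 to 6. With AXL WT hypoxia libraries 2 and 3 out, 7 members and 11533 genes were called for hypoxia in AXL WT.

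Signs changed only for values not called with all libraries. Slc4a7 in AXL KO against AXL WT in hypoxia became −0.01 with library size alone and ran from −0.06 to 0.54 with 1 library left out. Its response in AXL KO then ran from −0.17 to 0.01. The Slc4a4 response in AXL WT ran from −1.50 to 0.28 and was 1.01 without AXL WT hypoxia 2 and 3. Its difference of responses ran from −0.62 to 1.16 and was 0.36 with limma-voom, weighted or not. The Car2 difference of responses ran from −0.22 to 0.46. Scaling by library size alone moved the median of all genes to −0.21, −0.29, −0.23 and −0.32 in the comparisons of 2 groups.

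Replicate numbers did not pair the libraries: deviations of same-numbered libraries correlated between −0.0645 and 0.142, and in 12 of 36 cases a library correlated best with its own number. With the replicate block 7 members were called for AXL KO against AXL WT in hypoxia and 7 in normoxia, 6 and 5 for hypoxia in AXL KO and AXL WT, and 5 for the difference of responses, where all-gene calls were 10425, 9915, 9582, 9875 and 4521. Under the block Slc16a1 in normoxia lost its call (0.35, adjusted p = 0.0583), Car13 gained one in normoxia (−0.28) and in AXL WT (−0.33), and the Slc4a4 difference of responses turned to 0.05. The fit to the compared libraries alone was not run for the difference of responses, which needs all 12. Depth left at least 29 counts per library for each tested member and too few for a fold of Slc16a3.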
